A study of Sus scrofa with 40 samples.

Results

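The genes described here are the nuclear-encoded subunits of the mitochondrial respiratory chain and ATP synthase that a porcine expression array names by symbol. Members were all non-control spots whose gene name begins as those of complex I (NDUF), complex II (SDH), complex III (UQCR or CYC1), complex IV (COX4 to COX8 families) or ATP synthase (ATP5) do. This gave 36 genes, read by 143 probes under 47 of the 35955 identifiers on the array. The rule reads gene names and no measured value. By complex there were 11 genes of complex I, 2 of complex II, 2 of complex III, 9 of complex IV with NDUFA4 counted there, 11 of complex V, and NDUFA4L2, a paralogue of NDUFA4. The array is thin in named subunits: of the 4 genes that stand for the set, NDUFA1, SDHA, UQCRC1 and ATP5B, only 1, ATP5B, was present under its symbol, and of 38 subunits whose values were to be given by name 14 were.

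Kidneys came from Large White pigs aged 3 months. RNA was taken from the cortex (C) or from the corticomedullary junction (CMJ), where cortex meets outer medulla, and each sample was hybridised to 1 single-colour array, giving 40 arrays in 8 groups of 5. Ctl kidneys were sampled on removal. WI kidneys were clamped and kept at 37 °C for 60 min (warm ischemia). WI+CS6h and WI+CS24h kidneys had the same warm ischemia, a flush with University of Wisconsin (UW) solution and static storage at 4 °C, and were sampled at 6 h and again, the same 5 kidneys, at 24 h. There were thus 15 kidneys, none was reperfused, and the flush, the cold and the kidneys themselves cannot be told apart in any comparison between stored and unstored groups. The sources do not state that a C and a CMJ sample with the same number are from 1 kidney.

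The respiratory chain passes electrons from NADH and succinate to oxygen and pumps protons across the inner mitochondrial membrane, and ATP synthase uses the proton gradient to make ATP. Its subunits are made from nuclear genes and, for a small core of complexes I, III, IV and V, from mitochondrial DNA, so assembly draws on both genomes. The proximal tubule and the thick ascending limb, which reabsorb most filtered sodium, depend heavily on this pathway, and the junction is the part of the kidney known for low oxygen supply.

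Of the 36 genes, 32 were well above background on all 40 arrays: 9 of complex I, both of complex II, both of complex III, 8 of complex IV and all 11 of complex V. NDUFA12, NDUFB7 and COX8H were above it on no array, and NDUFA4L2 on some. Counts below are over the 32 genes unless stated. Between 57.0 and 69.9% of spots were above background per array, the arrays lay on 10 slides scanned on 2 days, and the lowest correlation between 2 arrays was 0.9214.

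The arrays numbered 5 of the 4 cold-storage groups stood apart from all others in these genes. Each gene's log2 signal was centred on its mean over the 40 arrays and averaged over the 32 genes, which gives a level per array. On the arrays numbered 5 that level was 0.82 at 6 h and 0.63 at 24 h in cortex, and 0.68 at 6 h and 0.73 at 24 h in the junction. It lay between -0.25 and 0.12 on the other 36 arrays, so the ranges did not overlap. The labels give the 6 h and 24 h samples of a number as 1 kidney within each tissue, so these 4 arrays come from 1 or 2 kidneys. Between tissues their deviations from the group means correlated at 0.72 at 6 h and 0.73 at 24 h over 17111 identifiers above background. At 6 h the arrays numbered 3 reached 0.76. Between 6 h and 24 h, within 1 tissue, the arrays numbered 5 correlated at 0.22 in cortex and 0.89 in the junction. The 4 arrays lay on 4 different slides, the cortex arrays both on scan day 2 and the junction arrays both on scan day 1. Their shares of spots above background at 6 h and 24 h were 57 and 67% in cortex and 64.3 and 66% in the junction. For the 32 genes, the counts and medians of each comparison with a cold-storage group are therefore given with all arrays and without these 4 arrays. That choice was made after the values were seen.

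**Figure D1:**
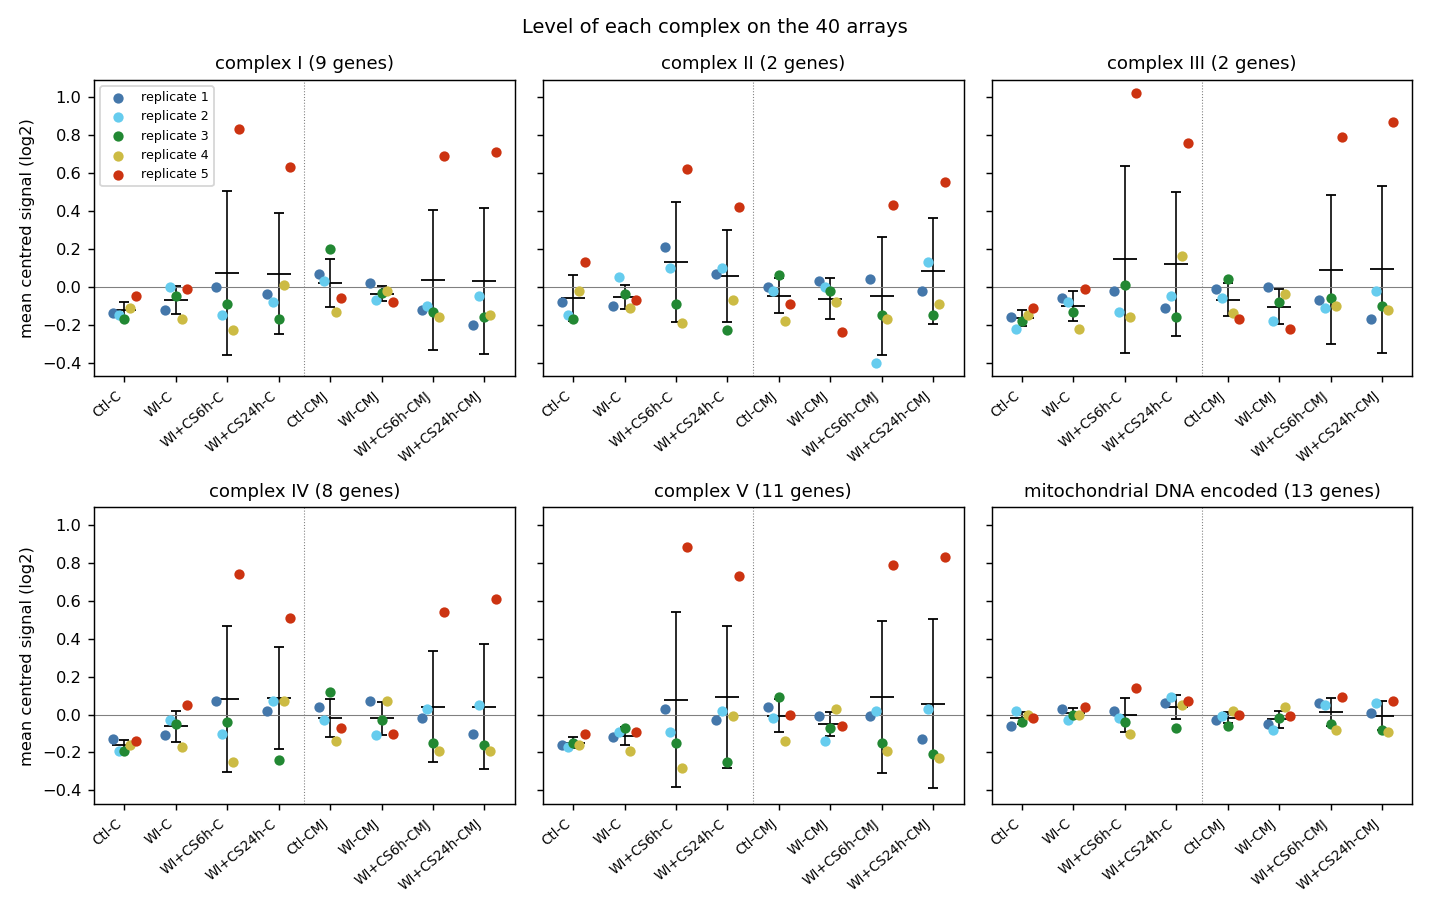
Level of each complex and of the 13 genes encoded in mitochondrial DNA, as the mean centred log2 signal (y axis), on each of 40 arrays in 8 groups (x axis), with the group mean and SD as bars and colours for the replicate number. Replicate 5 of the 4 cold-storage groups is highest in all 5 complexes, between 0.42 and 1.02, and the genes of mitochondrial DNA stay between -0.10 and 0.14 throughout.

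Over the 8 groups the level of the 32 genes was, in cortex, -0.14 ± 0.04 (SD, n = 5) for control, -0.08 ± 0.06 after warm ischemia, and 0.09 ± 0.43 and 0.08 ± 0.32 after 6 and 24 h of storage. In the junction it was -0.01 ± 0.10 for control, -0.04 ± 0.06 after warm ischemia, and 0.05 ± 0.35 and 0.05 ± 0.39 after storage. The SD of the stored groups came from number 5. Without it the level was -0.10 ± 0.12 and -0.05 ± 0.11 in stored cortex and -0.10 ± 0.07 and -0.12 ± 0.09 in the stored junction. All neighbours in the order of the 8 group means differed by less than the SD of the stored groups.

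Warm ischemia alone was compared with control kidneys first. In cortex none of the 32 genes was called by limma with an adjusted p below 0.05 and a log2 fold change of 0.5 or more in either direction, where 0.0946% of 35939 identifiers were called. At an unadjusted p under 0.05, 0 genes were higher and 1, ATP5E, was lower, where 4.89% of identifiers passed in either direction. The median log2 fold change of the 32 was 0.05, from -0.27 to 0.23, and for 19 genes the 95% interval lay within 0.5 on both sides of 0, for all 32 within 1. In the junction 0 were called, against 0.687% of 35938 identifiers, with 0 higher and 1 lower at the unadjusted threshold, which 12.3% of identifiers passed, and the median was -0.02. The difference between tissues in the response to warm ischemia had a median of -0.10 and 0 genes called, as for all identifiers (0%). At an unadjusted p under 0.05 by limma 0 genes passed, where 1.98% of identifiers did.

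Warm ischemia with storage was then set against control cortex. In WI+CS6h-C versus Ctl-C 1 gene was called, ATP5E, which fell, where 4.02% of identifiers were called. At an unadjusted p under 0.05, 3 genes were higher and 1 lower by limma, a share of the 32 below the 21.4% of identifiers that passed, the median was 0.27, and 30 of 32 values were above 0. In WI+CS24h-C versus Ctl-C 0 were called, against 2.5%, with 3 higher and 1 lower at the unadjusted threshold (16.2% of identifiers), and the median was 0.26. The median over all identifiers above background was 0.06 and 0.04. Without the arrays numbered 5 the member medians were 0.08 and 0.11, and 0 genes were called in either comparison, where 3.19 and 3.44% of identifiers were. At an unadjusted p under 0.05 by limma 2 genes were then higher and 2 lower at 6 h, where 17% of identifiers passed, and 6 higher and 2 lower at 24 h, where 19.4% did.

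Against WI-C, 0 genes were called in WI+CS6h-C (1.93% of identifiers) and in WI+CS24h-C (1.2%), with 1 gene higher at an unadjusted p under 0.05 by limma in each (15 and 11.4% of identifiers) and medians of 0.19 in both. Without number 5 those medians were 0.00 and 0.05, and 0 genes were called, where 1.94 and 1.64% of identifiers were, with 1 gene higher in each and 4 and 1 lower at the unadjusted threshold by limma (14.4 and 13.3% of identifiers). Between 24 h and 6 h of storage in cortex 0 genes and 0% of identifiers were called, and the median was -0.01. At an unadjusted p under 0.05 by limma 0 genes passed, where 3.11% of identifiers did. For 27 of the 32 genes the 95% interval of the difference between 24 h and 6 h lay within 0.5 of 0. Neither this fit nor that of the junction below paired the 6 h and 24 h samples of a kidney. Without number 5 the cortex median was 0.04, again with 0 genes called (0% of identifiers) and 0 at an unadjusted p under 0.05 by limma (2.55%).

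In the stored junction the values were smaller. In WI+CS6h-CMJ versus Ctl-CMJ 0 genes were called, against 3.19% of identifiers, and in WI+CS24h-CMJ versus Ctl-CMJ 0, against 3.65%. By limma 1 gene in each, ATP5E, had an adjusted p under 0.05 with a log2 fold change nearer to 0 than -0.5, and at an unadjusted p under 0.05 no gene was higher and 1 lower, where 16 and 17.7% of identifiers passed. The medians were 0.07 and 0.08. Without number 5 the medians turned to -0.07 and -0.09, 6 genes were lower at an unadjusted p under 0.05 in each comparison, a share near the 16.8 and 18.6% of identifiers that passed, and NDUFB9 was called lower in both, where 3.5 and 4.03% of identifiers were called.

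Against WI-CMJ, 0 genes were called in WI+CS6h-CMJ (2.78%) and WI+CS24h-CMJ (2.85%). At an unadjusted p under 0.05 by limma 0 genes passed, where 16.9 and 16.4% of identifiers did. The medians were 0.11 and 0.12, which turned to -0.04 and -0.07 without number 5. There 0 genes were called, where 3.24 and 3.28% of identifiers were, and 4 genes in each comparison were lower at an unadjusted p under 0.05, a share below the 18.6 and 17.4% of identifiers that passed. By limma NDUFB9 at both times, at -0.47 and -0.48, and COX7C at 24 h, at -0.24, had an adjusted p under 0.05 with a fold change nearer to 0 than the threshold. Between 24 h and 6 h in the junction 0 genes were called (0.00278% of identifiers) and 0 passed the unadjusted threshold by limma (3.44%), with a median of -0.01. Without number 5 this comparison too had 0 genes called (0.00278% of identifiers) and 0 at the unadjusted threshold (5.04%), with a median of -0.02. The differences between tissues in the response to storage had medians of -0.18 at 6 h and -0.17 at 24 h. These differences had 0 genes called (0% of identifiers) and 0 at an unadjusted p under 0.05 by limma (5.17 and 2.58%). Without number 5 their medians were -0.15 and -0.21, and still 0 genes and 0% of identifiers were called by limma. At an unadjusted p under 0.05, 2 of the 32 genes at 6 h and 10 at 24 h then had a lower response in the junction than in cortex, and none a higher one, where 4.23 and 3.85% of all identifiers passed that threshold in either direction. The medians against controls share their control arrays between 6 h and 24 h and so are not separate evidence.

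Within scan days the cortex medians against Ctl-C were 0.09 and 0.37 at 6 h and 0.18 and 0.36 at 24 h, from 2 to 3 arrays a side, and the higher value of each pair is from the day that holds number 5. The junction medians against Ctl-CMJ were 0.30 and -0.06 at 6 h and 0.16 and -0.09 at 24 h, again higher on the day that holds number 5.

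Between control tissues the 32 genes all had positive values in Ctl-CMJ versus Ctl-C, with values from 0.00 to 0.30 and a median of 0.13, and none was called, where 0.312% of 35934 identifiers were called. None passed the unadjusted threshold by limma with all arrays, where 6.09% of identifiers did. When the 4 arrays numbered 5 were left out of the estimate of spread, 7 genes passed, all higher in the junction, and 7.44% of identifiers. Those arrays were chosen for high values of these same genes, which narrowed their spread, so no conclusion is drawn from that count. The median over identifiers above background was -0.03. Among 4 thick ascending limb markers, whose summed log2 level was 12.28 to 12.77 in Ctl-CMJ and 11.73 to 12.22 in Ctl-C, CLDN10, a tight junction protein, and SLC12A1, the sodium, potassium and chloride cotransporter, rose in the junction by 0.52 and 1.24. The 9 proximal tubule markers had a median of -0.24 in the same comparison and a summed log2 level of 17.63 to 17.80 in Ctl-CMJ and 17.78 to 17.87 in Ctl-C. Among them SLC22A6, an organic anion transporter, was at -0.66 (adjusted p = 0.0543 by limma, and 0.0488 and called without number 5). Their part in the values of the respiratory genes was not tested, and in tissue samples more cells of a type and more RNA per cell cannot be told apart.

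**Figure D2:**
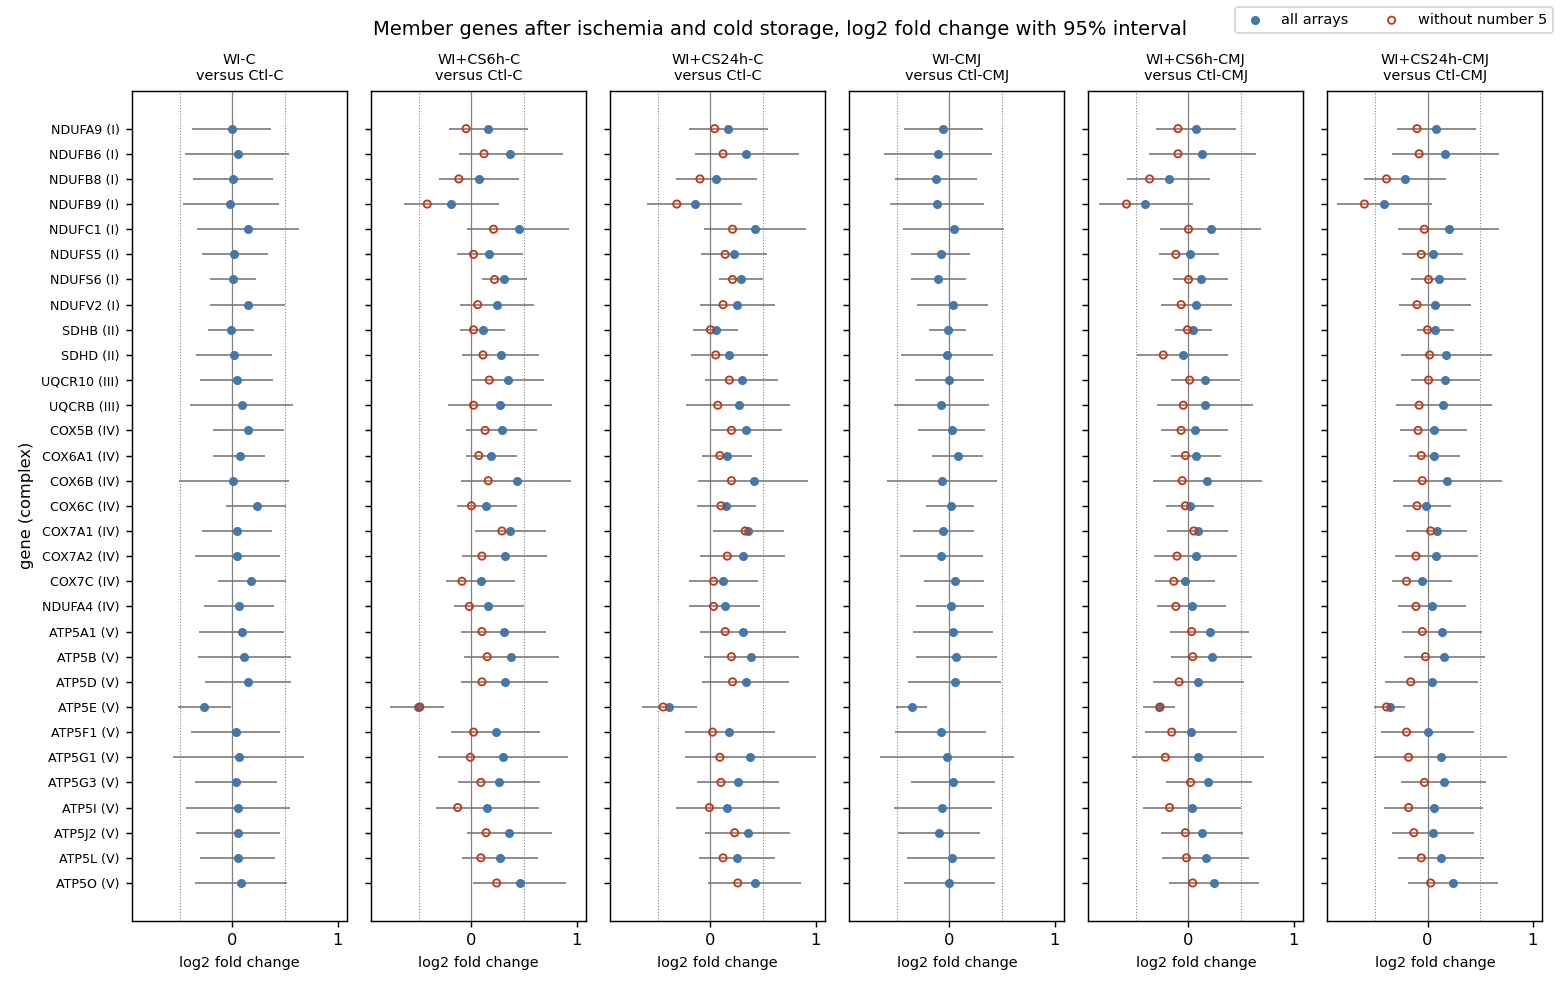
Log2 fold change (x axis) of 31 of the 32 genes (y axis, complex in brackets) in 6 comparisons with control, with the 95% interval from limma as a line, filled points for all arrays and open points without the arrays numbered 5. In stored cortex all filled points except those of NDUFB9 and ATP5E lie above 0 and most open points move towards 0, while ATP5E lies below 0 in all 6 panels.

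Complex V, ATP synthase, has a catalytic F1 head of alpha, beta, gamma, delta and epsilon subunits and a membrane part with a ring of c subunits. ATP5B, the catalytic beta subunit, read 13.69, 13.66, 13.65, 13.55 and 13.73 in Ctl-C and 13.92, 13.81, 13.82, 13.67 and 14.94 in WI+CS6h-C (normalised log2 signal). In WI+CS24h-C it read 13.93, 13.95, 13.67, 13.88 and 14.79. Numbers 1 to 4 of the stored cortex groups lay within the control range or above it, up to 13.95, and number 5 about 1 unit above it. The log2 fold changes were 0.38 ± 0.21 (SE) and 0.39 ± 0.21, with adjusted p = 0.306 and 0.388 by limma, and 0.15 and 0.20 without number 5. In the junction ATP5B read 13.96, 13.84, 13.84, 13.74 and 13.99 in Ctl-CMJ and 13.98, 14.02, 13.88, 13.79 and 14.78 in WI+CS6h-CMJ. In this group only number 5 left the control range by more than 0.1.

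ATP5A1, the alpha subunit, and ATP5D, the delta subunit, followed the same pattern. ATP5A1 averaged 13.29 ± 0.04 (SD, n = 5) in Ctl-C and 13.59 ± 0.46 in WI+CS6h-C, where its array numbered 5 read 14.41. ATP5D averaged 13.20 ± 0.07 and 13.51 ± 0.51, with 14.37 on that array. ATP5G1, which encodes the c subunit, was split between number 5 and the rest: in WI+CS6h-CMJ it read 14.04, 14.07, 14.02, 14.00 and 15.60, against 14.35, 14.20, 14.27, 14.12 and 14.33 in Ctl-CMJ. Numbers 1 to 4 thus lay below all control arrays and number 5 above them, and the fold change over all arrays was 0.09 (95% interval -0.54 to 0.72).

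ATP5E, the epsilon subunit of F1, was the only gene called in a comparison with control over all arrays, and its 2 probes disagreed. As the mean of both probes it read 12.29, 12.13, 12.29, 12.24 and 12.18 in Ctl-C. The values were 11.98, 11.87, 12.06, 11.97 and 11.90 after warm ischemia (WI-C) and 11.34, 12.07, 11.58, 11.94 and 11.63 after 6 h of storage. All 5 arrays of both treated groups lay below all control arrays. The log2 fold change was -0.51 ± 0.12 (SE) in WI+CS6h-C (adjusted p = 0.0214 by limma), -0.27 ± 0.12 in WI-C (adjusted p = 1.0) and -0.39 ± 0.12 in WI+CS24h-C (adjusted p = 0.1). In the junction it was -0.36 ± 0.07 after warm ischemia, and -0.28 ± 0.07 and -0.36 ± 0.07 after 6 and 24 h of storage, with adjusted p = 0.0265, 0.034 and 0.00623 by limma, all under the fold threshold. The 3 junction groups share their controls, as do the 3 cortex groups.

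The disagreement can be seen from the probes. Each is a 60-mer, and 30 bases of each are shown, 5′ to 3′, because the call rests on 1 of them. Capitals mark AATAAA, the letters of the polyadenylation hexamer. The numbers 1865 and 1999 are the starts of the probes in the transcript of the array design.

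ATP5E probe at 1865: acaaaggaccagcaactgcattttctcttt

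ATP5E probe at 1999: attgacaatgccAATAAAgtgaagcatggt

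The probe at 1865 read 9.28, 9.04, 9.26, 8.99 and 8.59 in Ctl-C and 6.87, 8.44, 7.57, 8.57 and 7.55 in WI+CS6h-C, a difference of -1.24. The probe at 1999, with the hexamer, read 15.30, 15.22, 15.33, 15.48 and 15.76 and then 15.81, 15.70, 15.60, 15.30 and 15.71, a difference of 0.21. The lower values in stored cortex were thus seen on the probe at 1865 and not on that at 1999, which is bright and was saturated on 1 array, where differences are compressed. Its means in the order control, warm ischemia, 6 h and 24 h were 9.03, 8.53, 7.80 and 8.09 in cortex and 9.0, 8.34, 8.43 and 8.25 in the junction. Those of the probe at 1999 were 15.42, 15.38, 15.63 and 15.58 in cortex and 15.49, 15.43, 15.50 and 15.53 in the junction. When the brighter probe stood for the gene, the fold change in WI+CS6h-C was 0.21 with adjusted p = 0.285 by limma, so the call and its direction were lost. The call was also lost without the array numbered 5 of each stored group, where the fold change was -0.49 (adjusted p = 0.038 by limma), just under the fold threshold. Of the 143 member probes 22.4% hold AATAAA, and 9.6% of all 43603 probes do.

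Complex I takes electrons from NADH. NDUFV2, an iron-sulfur subunit of its NADH-binding arm, read 11.78, 11.79, 11.80, 11.80 and 11.90 in Ctl-C and 11.95, 11.85, 11.94, 11.76 and 12.80 in WI+CS6h-C. Numbers 1 to 4 lay in or close to the control range and number 5 well above it. NDUFS6, an accessory subunit, came nearest to a call among genes with higher values: it read 13.46, 13.38, 13.31, 13.29 and 13.37 in Ctl-C and 13.65, 13.50, 13.61, 13.56 and 14.07 in WI+CS6h-C. All 5 stored arrays lay above all control arrays. Its log2 fold change was 0.31 ± 0.10 (SE; adjusted p = 0.0827 by limma) and 0.22 without number 5 (adjusted p = 0.0553), and 0.29 ± 0.10 at 24 h.

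NDUFB9, an accessory subunit of the membrane arm, went the other way. It read 13.39, 13.37, 13.59, 13.13 and 13.18 in Ctl-CMJ, then 12.53, 12.53, 12.99, 12.90 and 13.68 for WI+CS6h-CMJ and 12.44, 12.64, 12.97, 12.89 and 13.69 in WI+CS24h-CMJ. Numbers 1 to 4 of both stored groups lay below all controls and number 5 above them. Over all arrays the log2 fold change was -0.41 ± 0.21 (SE) in both, with adjusted p = 0.381 and 0.336 by limma. Without number 5 it was -0.59 and -0.60, with adjusted p = 0.0123 and 0.0104. In cortex the log2 fold change without number 5 was -0.42 at 6 h (adjusted p = 0.0467 by limma), under the fold threshold, and -0.32 at 24 h (adjusted p = 0.123). A second identifier of the gene, read by probes at 377 and 597, gave -0.08 in WI+CS6h-CMJ over all arrays and -0.34 without number 5 (adjusted p = 0.0471 by limma), under the fold threshold. On its probe at 597 numbers 1 to 4 of WI+CS6h-CMJ read 13.04, 13.08, 13.02 and 13.01, below the lowest Ctl-CMJ array at 13.31, and on its probe at 377 they read 12.69, 12.74, 12.23 and 12.28, of which the last 2 lay below the control range of 12.59 to 12.99. Without number 5 the differences in WI+CS6h-CMJ were -0.59 on the probe at 735, -0.40 on that at 597 and -0.28 on that at 377, so all 3 were below 0 and differed in size.

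The first identifier is read by the probe at 735, which shares a run of 50 of its 60 bases with the probe at 597. From each, 30 bases around AATAAA (capitals) are shown because numbers 1 to 4 of WI+CS6h-CMJ lay below every control array on both, and the probe at 377 is given whole as the one on which they overlapped.

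NDUFB9 probe at 735: tacgcttgccctAATAAAgtaactcaatat

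NDUFB9 probe at 597: aggacatacgcttgccctAATAAAgtaacc

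NDUFB9 probe at 377: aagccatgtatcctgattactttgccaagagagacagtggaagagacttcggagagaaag

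Complex II oxidises succinate and is the only complex with no subunit from mitochondrial DNA. SDHB, its iron-sulfur subunit, read 14.05, 14.06, 13.99, 14.09 and 14.31 in Ctl-C and 14.28, 14.17, 14.07, 13.99 and 14.54 in WI+CS6h-C. The groups overlapped, and the log2 fold changes over the 6 comparisons with control were between -0.01 and 0.11. SDHD, a membrane anchor, averaged 12.74 ± 0.13 (SD, n = 5) in Ctl-C and 13.02 ± 0.42 in WI+CS6h-C, with 13.67 on the array numbered 5. SDHA, the flavoprotein subunit, is not among the 36 genes, but a spot set described as SDHA and named LOC780433 averaged 12.63 ± 0.12 in Ctl-C, 12.80 ± 0.14 in WI-C and 12.66 ± 0.12 in WI+CS6h-C. Its array numbered 5 in WI+CS6h-C read 12.84, against 12.56 to 12.71 on the other arrays of that group. Another set described as SDHA differed from control by 0.33 in WI-C and 0.27 in WI-CMJ, where LOC780433 differed by 0.17 and 0.11, and on the arrays numbered 5 it averaged 0.05 above the other arrays of their groups.

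Complex III hands electrons from ubiquinol to cytochrome c. UQCRB, a small subunit, read 12.23, 12.24, 12.36, 12.18 and 12.13 in Ctl-CMJ and 12.18, 12.16, 12.21, 12.17 and 13.21 in WI+CS6h-CMJ. UQCR10, another small subunit, read 14.55, 14.45, 14.54, 14.34 and 14.34 in Ctl-CMJ and 14.49, 14.43, 14.48, 14.43 and 15.19 in WI+CS6h-CMJ. In both genes numbers 1 to 4 lay inside the control range and number 5 outside it. Spots described as UQCRC1, core protein I, and as UQCRFS1, the Rieske iron-sulfur protein, differed from Ctl-C by 0.21 and 0.28 in WI+CS6h-C. These values include number 5, and on the arrays numbered 5 of the stored groups they averaged 0.60 and 0.96 above the other arrays.

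Complex IV, cytochrome c oxidase, reduces oxygen. COX5B read 14.49, 14.52, 14.48, 14.53 and 14.58 in Ctl-C and 14.84, 14.60, 14.71, 14.48 and 15.41 in WI+CS6h-C. COX6A1, the isoform of most tissues, lay between 14.94 and 15.10 in Ctl-C and between 14.98 and 15.65 in WI+CS6h-C, where number 5 was again the highest. COX7A1 and COX7A2 are the muscle and the general isoform of 1 subunit, and they were spread differently: COX7A1 read 15.23, 14.67, 14.54, 14.26 and 15.05 in WI+CS6h-C, where number 1 was highest, and COX7A2 read 13.58, 13.37, 13.59, 13.36 and 14.57, where number 5 stood alone. COX7A1 had a log2 fold change of 0.37 ± 0.16 (SE; adjusted p = 0.197 by limma), and 0.29 without number 5. In the same comparison CKM, muscle creatine kinase, rose by 2.14 and MYLPF, a muscle myosin light chain, by 0.58, of which MYLPF was not called without number 5 (0.47, adjusted p = 0.0961 by limma), while MYH2 was above background on no array, and the summed log2 level of 6 muscle markers was 7.75 to 8.70 in WI+CS6h-C and 7.16 to 7.61 in Ctl-C. Their part in the COX7A1 values was not tested.

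NDUFA4, first assigned to complex I and now counted in complex IV, averaged 14.16 ± 0.13 (SD, n = 5) in Ctl-C and 14.32 ± 0.41 in WI+CS6h-C. On the array numbered 5 of WI+CS6h-C it read 15.04, and without that array NDUFA4 averaged 14.14 there. Its paralogue NDUFA4L2, known for induction by hypoxia, was the only gene called between control tissues. It read 1.82, 1.60, 1.74, 2.00 and 2.21 in Ctl-C and 5.01, 2.46, 2.20, 4.12 and 5.03 in Ctl-CMJ. The lowest junction array, at 2.20, lay just below the highest cortex array, and the other 4 lay above all of cortex. As the mean of its 2 probes NDUFA4L2 was higher in the junction by 1.89 ± 0.45 (SE; adjusted p = 0.049 by limma), and by 1.84 and 1.92 within the 2 scan days. The call was lost in 7 of 10 fits that left out 1 control array (without Ctl-C 1, 2, 3 or 4 or Ctl-CMJ 1, 4 or 5), with adjusted p up to 0.292, with scan day as a term (adjusted p = 0.0576 by limma) and with the 2 groups fitted alone (adjusted p = 0.272), and the difference was 0.26 after normexp background correction. The test of storage gave no call in either tissue: in the junction NDUFA4L2 averaged 3.76 ± 1.36 (SD, n = 5) for control and 3.77 ± 0.49 after warm ischemia, then 2.70 ± 0.83 and 2.85 ± 1.04 after 6 and 24 h of storage, with a log2 fold change of -1.06 ± 0.59 (SE; adjusted p = 0.419) at 6 h.

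Its 2 probes are shown because the level rests on 1 of them. The probe at 224, given whole, was above background on 0 of 20 cortex arrays and on 3 of 5 Ctl-CMJ arrays, so its cortex level is only a bound and the size of the mean difference above is not fixed. The probe at 899, of which 30 bases are given, read 3.05, 3.06, 3.39, 3.26 and 4.21 in Ctl-C and 7.90, 4.79, 4.26, 5.71 and 6.76 in Ctl-CMJ, above background on all 10. On this probe every control junction array lay above every control cortex array, and the difference was 2.49 (adjusted p = 0.0113 by limma). In each stored junction group the probe at 224 was above background on 0 of 5 arrays, so the mean differences after storage are not fixed in size either. The probe at 899 differed from Ctl-CMJ by -1.37 at 6 h and -1.43 at 24 h.

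NDUFA4L2 probe at 224: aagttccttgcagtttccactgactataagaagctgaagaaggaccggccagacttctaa

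NDUFA4L2 probe at 899: tgtcccccgggatcaaacagaagcagccgt

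**Figure D3:**
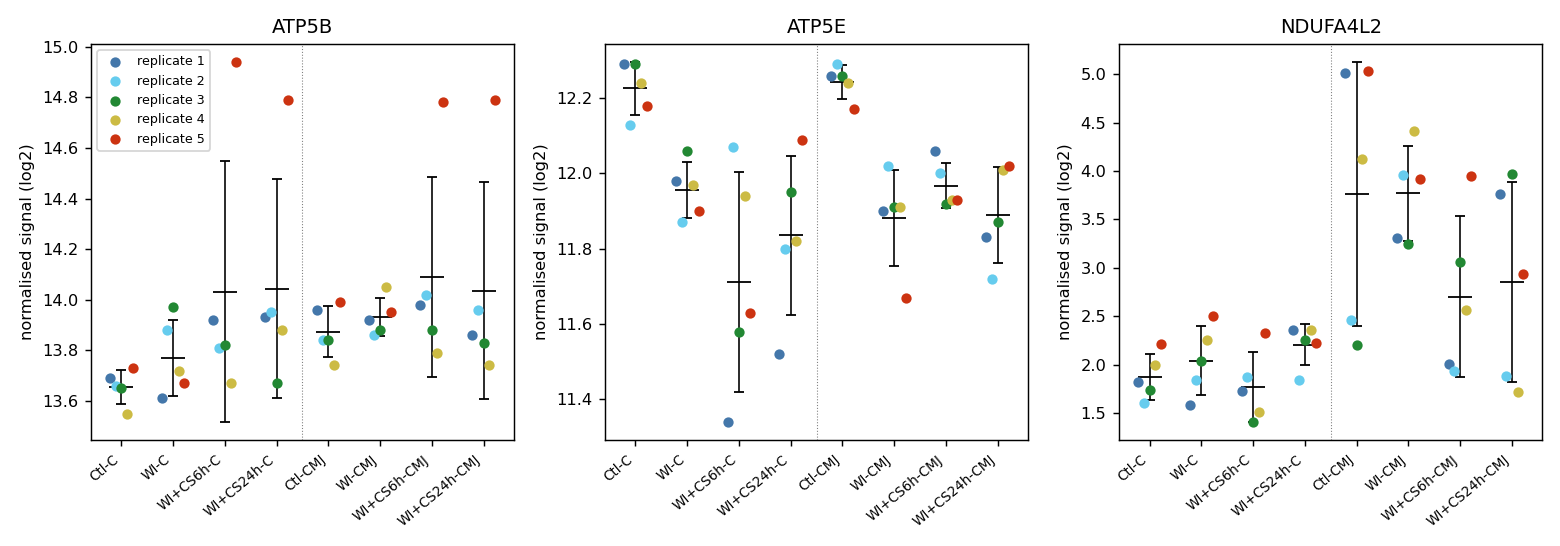
Normalised log2 signal (y axis, a separate scale in each panel) of ATP5B, ATP5E and NDUFA4L2 on each array of the 8 groups (x axis), with group mean and SD as bars and colours for the replicate number. ATP5B is high on the 4 arrays numbered 5 of the stored groups, ATP5E is highest in both control groups, and NDUFA4L2 is higher and more spread in the junction than in cortex.

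Identifiers and probes of 1 gene mostly moved together. In WI+CS6h-C versus Ctl-C, ATP5E, ATP5B, NDUFB8 and NDUFB9 were exceptions. A second identifier of ATP5B, 1 dim probe with a mean of 4.74, was at -0.83 (adjusted p = 0.0615 by limma) where the first, of 9 probes, was at 0.38. Without number 5 this second identifier was called lower at 6 h and 24 h in both tissues, by -0.94 and -0.93 in cortex (adjusted p = 0.0199 and 0.0193 by limma) and by -0.74 at both times in the junction (adjusted p = 0.00194 and 0.00172). A second identifier of NDUFB8, an accessory subunit of complex I, was at -0.61 (adjusted p = 0.14) and the identifiers of NDUFB9 were at -0.19 and 0.20, none of them called. Over 14 probes of ATP5A1 the differences in that comparison were 0.15 to 0.40, and over 10 probes of ATP5O, the stalk subunit that joins F1 to the membrane part, 0.38 to 0.52. Without number 5 they were -0.05 to 0.18 and 0.17 to 0.29.

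The arrays numbered 5 of the stored groups were then described gene by gene, as the difference from the mean of the other 4 arrays of the same group. No test was made, since the values themselves set these arrays apart. Of the 32 genes 31 were higher on all 4 arrays, ATP5E being the exception, and 23, or 71.9%, were higher by over 0.5 on all 4. Of 17111 identifiers above background on all arrays 4.81% were higher by over 0.5 on all 4 and 3.92% lower. The median of the 32 genes was 0.86 and that of the 17111 identifiers -0.01.

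By complex the medians were 0.92 in V, 0.94 in III, 0.87 in I, 0.69 in IV and 0.56 in II. ATP5G1 was highest, at 1.55, 1.44, 1.57 and 1.53 in the order WI+CS6h-C, WI+CS24h-C, WI+CS6h-CMJ and WI+CS24h-CMJ, a mean of 1.52 or 2.87-fold, with the spot saturated on 1 of these arrays. Of the 32 genes 9 had a saturated spot on at least 1 array numbered 5 of a stored group, and 1 of them, COX6A1, on other arrays too, so their gaps may be compressed. COX6B, the subunit on the cytochrome c side of complex IV, averaged 1.18, as did NDUFB6, an accessory subunit of complex I, and ATP5I, subunit e of ATP synthase, and UQCRB averaged 1.13. At the low end were NDUFS6 at 0.49, COX6C at 0.40, SDHB at 0.32, COX7A1 at 0.26 and ATP5E at 0.08. The gap was thus larger than 1 unit in some subunits and near 0 in another of the same complex. Of the 135 member probes above background on all arrays, 134 were higher on average and 114 by over 0.5. The separation of the 4 arrays from the other 36 was present under each of 7 ways of processing the arrays.

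**Figure D4:**
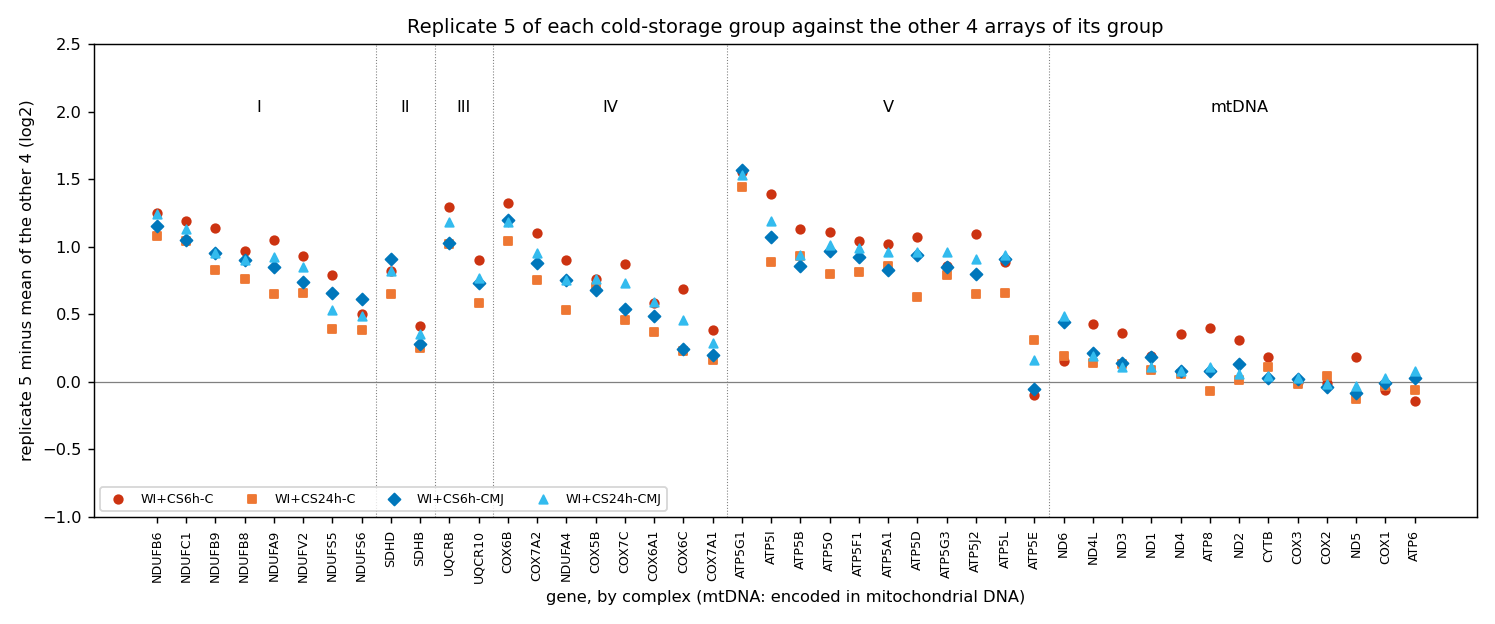
Log2 signal on the array numbered 5 minus the mean of the other 4 arrays of its group (y axis) for 31 of the 32 genes, by complex, and for 13 genes encoded in mitochondrial DNA (x axis), with 1 symbol for each of the 4 stored groups. Nearly all nuclear-encoded genes lie between 0.2 and 1.6 and the 4 symbols of a gene lie close together, while the genes of mitochondrial DNA lie nearer to 0, 6 of them read by spots saturated on every array.

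The 13 genes encoded in mitochondrial DNA, which give subunits of the same complexes, did not share this shift as measured: their level was 0.07 to 0.14 on the 4 arrays and -0.10 to 0.09 on the other 36. Of these 13, 6 were saturated on all 40 arrays and 3 on some, so their differences are compressed. The 4 that were never saturated, ATP8, ND4L, ND5 and ND6, differed by 0.13, 0.24, -0.01 and 0.32.

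Other nuclear genes of the pathway were higher on the arrays numbered 5 too. CYCS, cytochrome c, which carries electrons between complexes III and IV, read 10.35, 10.21, 10.40, 10.27 and 12.58 in WI+CS6h-C and 10.27, 10.29, 10.28, 10.57 and 12.36 in WI+CS24h-C. In the junction it read 12.46 and 12.49 on the arrays numbered 5 and 10.24 to 10.49 on the others of the stored groups. Number 5 thus stood about 2 log2 units above the other stored arrays. Over 7 lists of assembly factors, cytochrome c and coenzyme Q, citric acid cycle enzymes, carriers and import, 36 of 37 genes were higher on all 4 arrays and 17 by over 0.5, with a median of 0.57. Among them NDUFAF4 and NDUFAF5, complex I assembly factors, averaged 1.47 and 1.20, and MDH2, malate dehydrogenase, 1.37. The regulators were mixed: PPARGC1A, a coactivator of mitochondrial biogenesis, averaged 0.25 and TFAM, which packages and transcribes mitochondrial DNA, -0.11. SDHA under LOC780433 averaged 0.12, UQCRC1 0.60 and UQCRFS1 0.96 by their descriptions.

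Markers of tubule segments differed on the same arrays. Of 9 proximal tubule genes 4 were lower on all 4 arrays by over 0.5, among them GATM, a creatine synthesis enzyme, at -1.33 and LRP2, the endocytic receptor megalin, at -1.08. GATM on the arrays numbered 5 read 12.12 and 11.91 in cortex and 11.75 and 11.80 in the junction, near the control ranges of 12.14 to 12.58 and 11.71 to 12.01, and it was the other stored arrays that were high, at 12.50 to 13.98. LRP2 read 13.47 to 13.70 on the arrays numbered 5, below all other arrays, of which the lowest read 14.03. The summed log2 level of the 9 was 17.26 to 17.46 on the arrays numbered 5 of the stored groups and 17.63 to 18.03 in the unstored groups, but 3 of the 9, among them FBP1 and PCK1, which are 2 of the 4 lower genes, were saturated on some arrays, so sum and gaps are compressed. Over the 6 genes never saturated the sum was 15.41 to 15.61 and 15.56 to 16.19, and the ranges overlapped. Of 4 thick ascending limb genes CLDN16, a tight junction protein, averaged 0.73, EGF -0.17. CD14, a myeloid marker, averaged 1.33 and CD3E, a T cell marker, -1.24. The 3 distal convoluted tubule genes were split: PVALB averaged 0.78, while CALB1 averaged -0.54 (-0.73 to -0.45) and TRPM6 -0.37 (-0.58 to -0.21). The median of 5 collecting duct genes was -0.25. CKM averaged 0.86, and both PVALB and CKM were higher by over 0.5 on all 4 arrays. HBB, a globin chain of red cells, read 4.17 to 5.82 on these 4 arrays and 0.07 to 5.12 on the other 16 stored arrays, where it was above background on 7. The part of these cell types in the respiratory gene values was not tested.

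The 32 genes moved together across arrays, more closely with number 5 of the stored groups than without it. After group means were removed, the correlation of each gene with the mean of the other 31 had a median of 0.96 over 40 arrays and exceeded 0.9 for 25 genes. Over 36 arrays, without number 5 of the stored groups, the median was 0.73, and 1 gene exceeded 0.9, while COX7A1 went from 0.55 to 0.86. The lowest there were ATP5E at -0.43 and NDUFB9 at 0.02, the genes whose values went against the rest in the comparisons with control. These are descriptions, since arrays share normalisation and, in the stored groups, kidneys.

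In WI+CS6h-C versus Ctl-C, where 4.02% of identifiers were called, none of 6 complex I assembly, 4 complex IV assembly, 8 cytochrome c and coenzyme Q, 11 citric acid cycle and 13 mitochondrial DNA genes was called, with medians of 0.12, 0.15, 0.07, 0.24 and 0.02. These medians include number 5, on which the same lists were higher by medians of 0.66, 0.77, 0.31, 0.65 and 0.13 over the 4 stored groups. Without number 5 none of these genes was called either, where 3.19% of identifiers were. Of 7 regulators TFB2M, a mitochondrial transcription factor, rose by 0.63 ± 0.17 (SE; adjusted p = 0.037 by limma) in WI+CS24h-CMJ versus Ctl-CMJ, where 3.65% of identifiers were called, and by 0.51 without number 5 (adjusted p = 0.0842). COX10, a heme assembly factor of complex IV, was called only without number 5, with log2 fold changes of -0.80 and -0.75 against WI-CMJ at 6 h and 24 h, where 3.24 and 3.28% of identifiers were called.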

How the data were processed

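RNA of each sample was labelled with Cy3 and hybridised to 1 Agilent porcine array, and the authors read scans with Feature Extraction 11.5.1.1 into the deposited intensity files. The authors also deposited log2 values, quantile normalised by condition with limma under R 2.15.2 according to their methods, and these served only as an alternative. Here the background-corrected processed intensity was log2 transformed and quantile normalised over the 40 arrays (R 4.3.3, limma 3.58.1), control and outlier-flagged spots were left out, and probes of 1 identifier were averaged. A gene with several identifiers was represented by the brightest. Differences were tested with lmFit and eBayes on all identifiers, within the 20 arrays of a tissue or on all 40 for tissue terms, with Benjamini-Hochberg adjustment. A call needed an adjusted p below 0.05 and a log2 fold change of 0.5 or more in either direction. Genes named by rule were ATP5B, catalytic subunits, isoforms and, per comparison, up to 5 called members and 3 called genes of each other list; ATP5G1, ATP5I, ATP5O, COX6B, COX6C, COX7C, NDUFB6, NDUFB8, NDUFB9, NDUFS6, UQCR10, UQCRB and the unlisted genes of the arrays numbered 5 were named after their values were seen. The fits were tested on simulated data. The number of arrays limits precision. Members and lists were chosen with earlier results of these data known. Promoter motifs were not analysed here, and the single values of 1 gene, which stays in the counts, are not reported. Labels pair the 6 h and 24 h samples by kidney. The correlation of same-numbered deviations was -0.42 to 0.70 in cortex and 0.65 to 0.89 in the junction. Between C and CMJ it was 0.14 to 0.76 at 6 h, 0.23 to 0.73 at 24 h, 0.13 to 0.55 after warm ischemia and -0.27 to 0.24 in controls.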

Additional observations from a re-analysis of the deposited data

Results flagged for a closer look

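Results are listed here where 1 of the 5 arrays of a group lay far from the rest, measured as its gap to the nearest array over the range of the group, with a critical value of 0.71. Chance flags about 1 in 20 groups.

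For the levels of the complexes and for ATP5B in the cold-storage groups this was array number 5, each time as the highest. For the level of complex I the ratio was 0.78 at both times in cortex, and in the junction 0.93 at 6 h and 0.83 at 24 h. For complex III it was 0.86 in cortex at 6 h, and in the junction 0.95 at 6 h and 0.86 at 24 h. For complex V it was 0.74, 0.72, 0.78 and 0.75 in WI+CS6h-C, WI+CS24h-C, WI+CS6h-CMJ and WI+CS24h-CMJ, and for all 32 genes 0.73, 0.72, 0.85 and 0.78 in the same order. ATP5B, the catalytic beta subunit, gave 0.81, 0.75, 0.76 and 0.79.

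Taken singly, 13 of the 32 genes had such an array in cortex at 6 h and 9 at 24 h, and in the junction 21 at 6 h and 15 at 24 h, and in each case it was number 5. In the unstored groups there were 2 in Ctl-C, 1 in WI-CMJ and 0 in WI-C and Ctl-CMJ.

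Outside this pattern, complex V in Ctl-C gave 0.71 with number 5 highest, by a level of -0.10 against -0.17 to -0.15. The genes of mitochondrial DNA in WI+CS24h-C gave 0.77 with number 3 lowest, at -0.07. NDUFA4L2 in WI+CS24h-C gave 0.73 with number 2 lowest, at 1.84.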

How the results depend on the processing

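Alternatives changed the scaling, background correction, probe averaging, filter, block, covariate or arrays 1 at a time, over 16 comparisons. Of 192 planned counts of called genes 181 stayed within 1.5 times, as did 178 of 190 with 1 array left out and 29 of 32 added after the data were seen. In WI+CS6h-C versus Ctl-C the count of 1 (ATP5E) was 0 under 75th percentile scaling, normexp correction, the brightest probe, the deposited values, the share of spots above background as a covariate, the 2 groups compared alone and without the arrays numbered 5, and 0 to 1 with 1 array left out (0 without Ctl-C 1 or 3 or WI+CS6h-C 1, 3 or 5). Its log2 fold change was -0.52 to -0.32 over 13 settings and turned to 0.21 with the brightest probe. In Ctl-CMJ versus Ctl-C the count of 1 (NDUFA4L2, 0.26 to 2.49) was 0 under normexp correction, scan day as a term and the groups alone, and 0 to 1 with 1 array left out (0 in 7 of 10 fits). Quantile normalisation within groups gave 1 in WI+CS6h-C versus WI-C (NDUFS6) and 1 in WI+CS24h-C versus WI+CS6h-C (NDUFB7, never above background), and it moved the median of all identifiers by up to 0.24. Without the arrays numbered 5, 1 gene (NDUFB9) was called against Ctl-CMJ at each of 6 h and 24 h. The cause was not tested.

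The replicate block left the count at 1 (ATP5E, adjusted p = 0.0349 by limma) in WI+CS6h-C against control and changed no other call. Numbers pair only the 6 h and 24 h samples by the labels, where it gave 0 called genes in both tissues. At 5 arrays a group, median 95% intervals of differences between groups reached 0.38 to 0.39 on either side in log2, and 0.15 to 0.20 without the arrays numbered 5, and those of differences between tissues in a response 0.54 and 0.22 to 0.23.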
